A study of Homo sapiens with 3 samples.

Results

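The c-Myc oncoprotein is short-lived, and its level in a cell is set by ligases that attach ubiquitin to it and by enzymes that oppose or prepare that step. Expression of 7 genes of this machinery was examined in PC3 cells with and without knockdown of USP16. They are FBXW7, SKP2, FBXO28, HUWE1, STUB1, TRIM32 and GSK3B, taken by gene symbol from a list prepared with earlier results of these data known. All 7 were found among the 59719 gene names kept from the deposited table, and all 7 were among the 13629 names whose mean over the libraries reached 1 TPM. TPM is a measure of transcript abundance in which reads are corrected for length and every library has the same total.

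PC3 is an androgen-independent prostate cancer cell line. RNA-seq was performed on total RNA of cells expressing the vector control (shCON), the hairpin shUSP16#1 or the hairpin shUSP16#2, both directed against USP16, a deubiquitinase. The labels give no time after introduction of the hairpins and do not say whether a clone or a pool of cells was used. There was 1 library per condition, hence no test across samples, no error of a mean and no p-value can be given for any value here. Both comparisons use the same shCON library, so any deviation of that library enters both of them.

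Ubiquitin ligases recognise c-Myc in different ways. FBXW7 is the substrate receptor of an SCF complex, a ligase built on the cullin CUL1 and the adaptor SKP1, and binds c-Myc once the kinase GSK3B has phosphorylated its degron. SKP2 is another SCF receptor, which binds c-Myc and also promotes its activity as a transcription factor, and FBXO28 is a further F-box protein known to modify c-Myc without leading to its degradation. HUWE1 is a giant ligase of the HECT class, STUB1 (also called CHIP) is a U-box ligase that works with chaperones, and TRIM32 is a RING ligase of the tripartite motif family.

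The hairpin sequences are shown because each can also meet short matches in other transcripts. The capitals mark the bases complementary to bases 2 to 8 of the antisense strand, the stretch through which a small RNA can act on partly matching transcripts.
shUSP16#1 sense: gccagaagaaatcATGTTTAt
shUSP16#2 sense: cggtgatattccaCAAGATTt
Each run of 7 capital letters was searched on the sense strand of the longest coding transcript in GENCODE release 29. For genes without a coding transcript the longest transcript was used. It was found in HUWE1 and TRIM32 for both hairpins, and in neither case in FBXW7, SKP2, FBXO28, STUB1 or GSK3B. Of the 13290 genes averaging 1 TPM or more with a transcript there, 25.6% held the match to shUSP16#1 and 22.1% the match to shUSP16#2. These shares were not matched for transcript length, and the transcript of HUWE1 has 14796 bases.

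Of the 6 matches in HUWE1 and TRIM32, 4 are shown with their surroundings on the strand of the gene, 1 for each gene and hairpin, with the matched bases in capitals. HUWE1 held 1 match to shUSP16#1 in its coding sequence, at chrX:53536582-53536588 of GRCh38 on the reverse strand, and 3 matches to shUSP16#2, of which those in the coding sequence are not shown and the one in the 3' untranslated region lies at chrX:53532839-53532845. TRIM32 held 1 match to shUSP16#1 in its 3' untranslated region, at chr9:116701008-116701014 on the forward strand, and 1 match to shUSP16#2 in its coding sequence, at chr9:116697937-116697943.
HUWE1, shUSP16#1 match: tcgagagATGTTTAaccctat
HUWE1, shUSP16#2 match in the 3' untranslated region: tgcgagaCAAGATTggcgtct
TRIM32, shUSP16#1 match: atgttttATGTTTAtaattac
TRIM32, shUSP16#2 match: tttgcagCAAGATTacccgca
A match is a description of letters only, and whether any of them is acted on was not tested.

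Transcripts of USP16, against which the hairpins are directed, measured 19.92 TPM in the shCON library, and 3.5 and 1.08 TPM in the shUSP16#1 and shUSP16#2 libraries, so both knockdown libraries were below the control, shUSP16#2 the more so. Changes are given as the difference of log2(TPM + 1) from shCON, on which the change of weakly expressed genes is understated, and a gene was called where the difference reached 2-fold. Over all 13629 genes the median change was -0.17 under shUSP16#1 and -0.37 under shUSP16#2. Changes were higher in transcripts richer in GC (Spearman's rho over genes 0.54 for shUSP16#1 and 0.64 for shUSP16#2), so each gene is also set against the 265 or 266 genes in its bin of GC content. The epithelial genes KRT8, KRT18, KRT19, CDH1 and EPCAM, together with VIM and CD44, were at 65.8 to 1005 TPM in shCON, and the luminal genes KLK2 and KLK3 were listed at 0 in every library. Of 6 markers of other cell types, COL1A1, a fibroblast gene, was at 4.19, 10.71 and 4.78 TPM in shCON, shUSP16#1 and shUSP16#2, PECAM1 reached 1.28 TPM under shUSP16#2, and the other 4 stayed at or below 0.14 TPM.

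**Figure D1:**
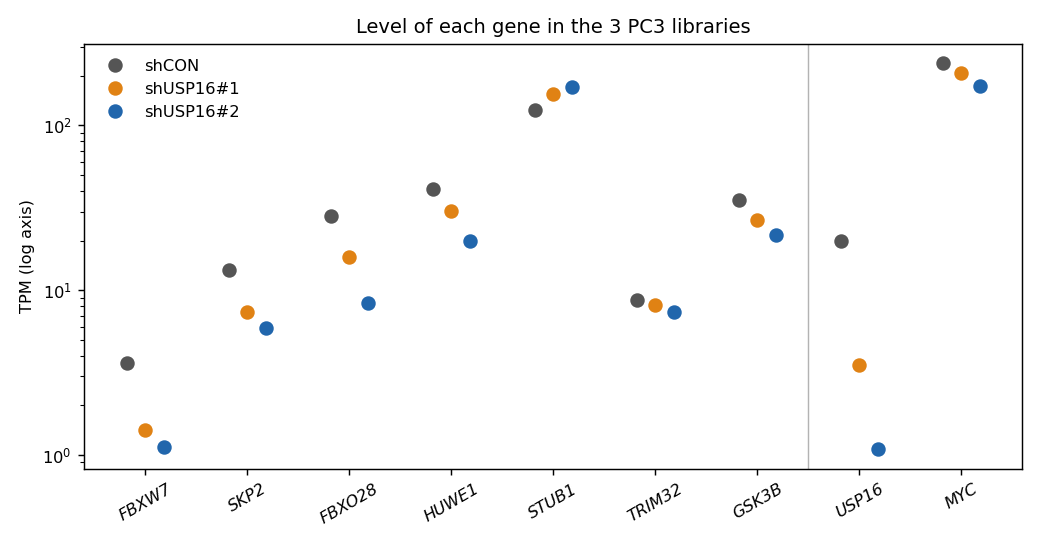
TPM on a log axis for the 7 genes, and right of the grey line for USP16 and MYC, with 1 point for each of the 3 libraries and no error bars because each condition has 1 library. STUB1 lies highest of the 7 in every library, from 124.63 to 170.76 TPM, and FBXW7 lowest, from 1.12 to 3.63 TPM.

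Levels of the 7 genes spanned a wide range in the control cells. The order in shCON was STUB1, HUWE1, GSK3B, FBXO28, SKP2, TRIM32 and FBXW7, from 124.63 down to 3.63 TPM. In shUSP16#1 TRIM32 stood above SKP2, and in shUSP16#2 GSK3B also stood above HUWE1. Without replicates it cannot be said which neighbours in this order differ beyond their spread. STUB1 made up 48.9% of the summed TPM of these genes in control cells, against 63.4% with shUSP16#1 and 72.6% with shUSP16#2. These shares are not corrected for GC content, which is 65.8% for the transcript of STUB1. With the GC trend of the changes removed, STUB1 differed from shCON by -0.07 and -0.15 on the log2 scale. Levels depend on the length by which reads were divided, and for GSK3B the deposited length was 1957 bases against 7711 bases of its longest coding transcript, and for SKP2 1589 against 3759 bases.

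Of the 7 genes, 6 were lower than in shCON under shUSP16#1, where 61.7% of all genes were lower, and 6 were lower under shUSP16#2, where 70.2% of all genes were lower. STUB1 was the exception under each hairpin. Under each hairpin this count was 5 when centred on all genes, 7 with the GC trend removed and 4 relative to genes of like GC content. The shares of 61.7% and 70.2% are for uncorrected changes and do not apply to these 3 settings. Centring on the median of all genes or of a GC bin puts about as many genes below 0 as above it. With the GC trend removed, the share of all genes below 0 was not computed. No member was at least 2-fold lower under shUSP16#1 on the log2(TPM + 1) scale, against 5.76% of all genes. FBXW7, at 0.388 of its shCON level in plain TPM, was kept from the threshold by the 1 added to TPM. With 0.1 added instead, its change under shUSP16#1 was -1.30 and 1 member was called, against 9.56% of all genes. Under shUSP16#2 there were 4 of 7 at least 2-fold lower, namely FBXW7, SKP2, FBXO28 and HUWE1, against 19.5% of all genes. None was at least 2-fold higher under either hairpin, against 2.82% of all genes under shUSP16#1 and 2.78% under shUSP16#2. HUWE1, at -1.01, and SKP2, at -1.04, lay just inside the 2-fold threshold under shUSP16#2, and the next gene outside it was GSK3B at -0.68. The median of the 7 was -0.43 under shUSP16#1 and -1.01 under shUSP16#2. Set against genes of like GC content, these medians were -0.18 and -0.11, and 0 members were 2-fold lower under shUSP16#2.

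**Figure D2:**
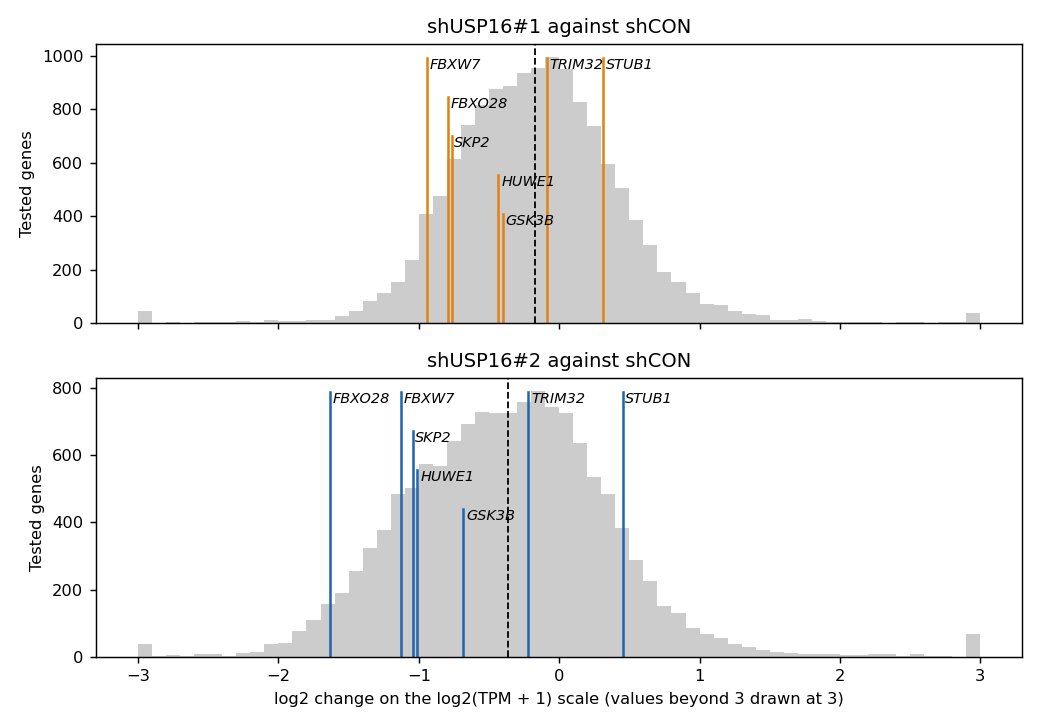
Histograms of the change of all 13629 genes on the log2(TPM + 1) scale, shUSP16#1 above and shUSP16#2 below, with the dashed line at the median of all genes and coloured lines at the 7 genes, whose height carries no value. STUB1 lies right of the other 6 in both panels, at 0.31 and 0.45, though with the GC trend removed it came to -0.07 and -0.15, and FBXO28 lies farthest left under shUSP16#2, at -1.64.

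FBXW7 (ENSG00000109670) lies at chr4:152320544-152536063 of GRCh38, on the reverse strand. It was at 3.63 TPM in control cells, against 1.41 TPM with shUSP16#1 and 1.12 TPM with shUSP16#2. Both knockdown libraries were below the control and close to each other. The change was -0.94 under shUSP16#1 and -1.13 under shUSP16#2, at percentiles 7.47 and 14.8 of all genes. In plain TPM the level was 0.388 and 0.309 of that in shCON, and the pseudocount of 1 makes the logarithmic values smaller for a gene this low. Relative to genes of like GC content the change was -0.60 and -0.58, so FBXW7 was below the median of those genes under each hairpin. Among 49 F-box genes averaging 1 TPM or more, FBXW7 ranked 43 by level in shCON and 49, the lowest, in both knockdown libraries. USP28, a deubiquitinase known to bind c-Myc through FBXW7, was at 10.57, 8.5 and 4.87 TPM in shCON, shUSP16#1 and shUSP16#2. The ratio of FBXW7 to USP28 was 0.343 in control cells, against 0.166 with shUSP16#1 and 0.230 with shUSP16#2. FBXW7 shares 127 exon bases with the antisense gene FBXW7-AS1, which was listed at 0 in all 3 libraries.

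SKP2 (ENSG00000145604), at chr5:36151989-36184319 on the forward strand, is best known for the degradation of the cell cycle inhibitor encoded by CDKN1B. Its level was 13.27 TPM in the shCON library, and 7.39 and 5.92 TPM in the shUSP16#1 and shUSP16#2 libraries. Both knockdown libraries were below the control. The change was -0.77 and -1.04, at percentiles 13.8 and 17.95 of all genes. SKP2 has a transcript of 41.3% GC, and genes of like GC content had median changes of -0.56 and -0.94, which left SKP2 -0.21 and -0.11 from them. Its cofactor CKS1B, which helps SKP2 to bind its substrates, was at 531.03 TPM in control cells, against 480.5 TPM with shUSP16#1 and 335.98 TPM with shUSP16#2. CDKN1B itself was at 12.97, 9.52 and 8.88 TPM in the same order of libraries.

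FBXO28 (ENSG00000143756), at chr1:224114087-224162047 on the forward strand, had the largest change of the 7 under shUSP16#2, though with the GC trend removed its -0.97 stood behind -1.02 of HUWE1. It was at 28.18 TPM in the shCON library, and 15.86 and 8.39 TPM in the shUSP16#1 and shUSP16#2 libraries. The 3 libraries were spread widely, with shUSP16#2 near 0.529 of the level under shUSP16#1. The change was -0.79 under shUSP16#1 and -1.64 under shUSP16#2, at percentiles 12.7 and 3.43 of all genes. Among the 49 F-box genes its uncorrected change ranked 6 from the lowest under shUSP16#1 and 1 under shUSP16#2, and with the GC trend removed 18 and 2. Its transcript has a low GC content, 38.5%, and relative to like genes the change was -0.18 and -0.60.

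HUWE1 (ENSG00000086758), at chrX:53532096-53686729 on the reverse strand, is the ligase with the largest transcript of the 7, at 14796 bases. Its level was 41.23 TPM in control cells, against 30.28 TPM with shUSP16#1 and 19.97 TPM with shUSP16#2. The library of the stronger knockdown was the lowest and the control the highest. The change was -0.43 under shUSP16#1 and -1.01 under shUSP16#2. Relative to genes of like GC content it was -0.29 and -0.65, below the median of those genes under each hairpin. Both hairpins have matches in HUWE1, 1 for shUSP16#1 and 3 for shUSP16#2, and their part in the change was not tested. Among 24 HECT ligases averaging 1 TPM or more, the median change was -0.63 under shUSP16#1 and -1.03 under shUSP16#2, and HUWE1 ranked 16 and 13 from the lowest. With the GC trend removed the family medians were -0.47 and -0.78, and HUWE1, at -0.47 and -1.02, ranked 13 and 6.

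STUB1 (ENSG00000103266), at chr16:680224-682870 on the forward strand, was the one gene of the 7 with higher TPM in both knockdown libraries. It was at 124.63 TPM in the shCON library, and 155.14 and 170.76 TPM in the shUSP16#1 and shUSP16#2 libraries. The control was the lowest library. The change was 0.31 and 0.45, at percentiles 81.4 and 89.5, but came to -0.07 and -0.15 with the GC trend removed, and to 0.10 and 0.22 when set against genes of like GC content. Its transcript, with 65.8% GC, is the richest in GC of the 7. STUB1 shares 983 exon bases with JMJD8 on the opposite strand, which was at 68.21, 66.34 and 54.93 TPM in shCON, shUSP16#1 and shUSP16#2. Whether reads were counted by strand is not given in the sources used here, so reads of the shared bases cannot be told apart between these genes. HSPA8, a chaperone that presents substrates to STUB1, was at 1325.79, 731.59 and 660.69 TPM. The ratio of STUB1 to HSPA8 was 0.0940 in control cells, against 0.212 with shUSP16#1 and 0.258 with shUSP16#2. This ratio is not corrected for GC content, which is 47.0% for the transcript of HSPA8. With the GC trend removed HSPA8 had changes of -0.70 and -0.83. It belongs to a list of 9 chaperone partners of STUB1, with median changes of -0.16 and -0.40.

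TRIM32 (ENSG00000119401), at chr9:116687302-116701300 on the forward strand, had the smallest uncorrected change of the 7. It was at 8.73 TPM in control cells, against 8.16 TPM with shUSP16#1 and 7.36 TPM with shUSP16#2. The 3 libraries lay close together. The change was -0.09 under shUSP16#1 and -0.22 under shUSP16#2, but relative to the median of all genes it was 0.08 and 0.15, and relative to genes of like GC content 0.15 and 0.24. TRIM32 holds a match to each hairpin, as HUWE1 does. It lies within ASTN2, on the opposite strand, with no exon bases shared.

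GSK3B (ENSG00000082701), at chr3:119821323-120094417 on the reverse strand, encodes the kinase that completes the c-Myc phosphodegron read by FBXW7. Its level was 35.44 TPM in the shCON library, and 26.56 and 21.67 TPM in the shUSP16#1 and shUSP16#2 libraries. Both knockdown libraries were below the control. The change was -0.40 and -0.68, but relative to genes of like GC content it was 0.05 and 0.13. Its paralog GSK3A was at 43.9, 45.86 and 42.39 TPM. The ratio of GSK3B to GSK3A was 0.807 in control cells, against 0.579 with shUSP16#1 and 0.511 with shUSP16#2. This ratio is not corrected for GC content, which is 42.1% for the transcript of GSK3B and 52.0% for that of GSK3A. With the GC trend removed the changes were -0.13 and -0.25 for GSK3B, and 0.05 and -0.05 for GSK3A.

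**Figure D3:**
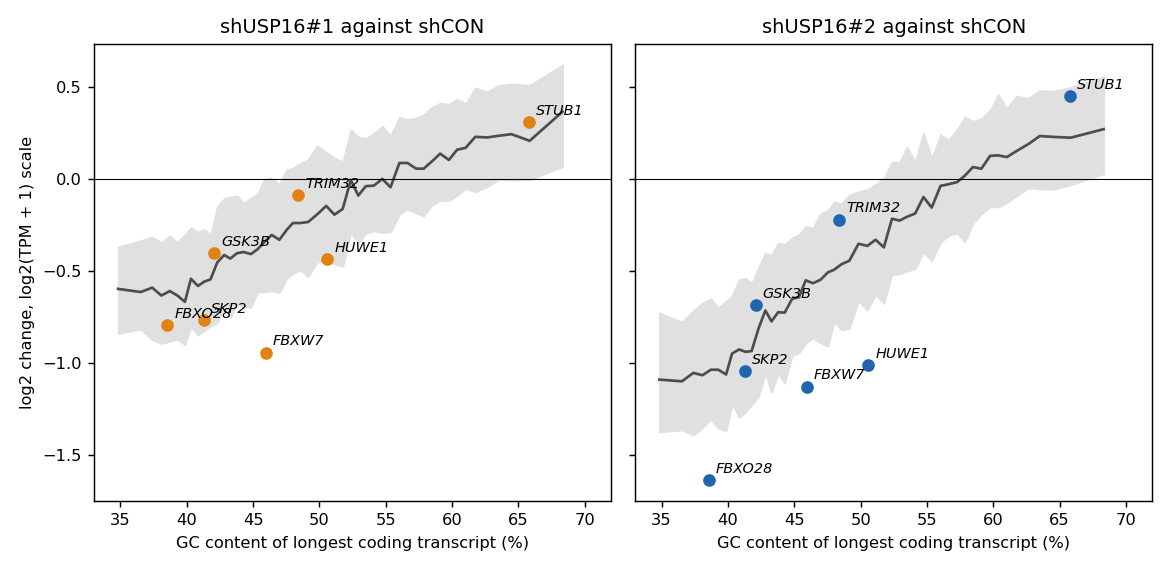
Change on the log2(TPM + 1) scale against the GC content of the longest coding transcript, shUSP16#1 left and shUSP16#2 right, with the median (line) and the middle 50% (grey) of genes in 50 bins of GC content and the 7 genes as points. FBXW7 lies below the grey band in both panels and FBXO28 and HUWE1 below it under shUSP16#2, while SKP2, GSK3B, TRIM32 and STUB1 lie inside it in both. Genes without a coding transcript were placed in bins by their longest transcript.

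The knockdown libraries were also compared directly with each other, without the control. Of the 7 genes, 6 were lower under shUSP16#2 than under shUSP16#1, where 73.5% of all genes were lower and the median difference was -0.21. FBXO28 differed by -0.84 and HUWE1 by -0.58. SKP2 and GSK3B each differed by -0.28, FBXW7 by -0.18 and TRIM32 by -0.13, and STUB1 differed by 0.14.

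MYC itself, whose product these enzymes act on, was at 238.14 TPM in control cells, against 208.86 TPM with shUSP16#1 and 172.59 TPM with shUSP16#2. The change was -0.19 and -0.46, at percentiles 48.8 and 45.0 of all genes. Relative to the median of all genes it was -0.02 and -0.09, and relative to genes of like GC content -0.15 and -0.28. These are transcript levels, and the level or ubiquitination of the c-Myc protein was not measured in these data.

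The partners of the F-box receptors were examined as a list of 13 genes for the SCF core, its neddylation and its exchange factors. Their median change was -0.22 under shUSP16#1 and -0.72 under shUSP16#2, and 0 and 4 were at least 2-fold lower, against 5.76% and 19.5% of all genes, with none 2-fold higher. With the GC trend removed, 0 were 2-fold lower under either hairpin, against 3.02% and 9.57% of all genes. The 4 were DCUN1D1 and NAE1, which serve neddylation of the cullin, CAND1, which exchanges receptors, and CUL1, the cullin. CUL1 was at 44.02 TPM in the shCON library, and 25.64 and 18.61 TPM in the shUSP16#1 and shUSP16#2 libraries. CDC34, an ubiquitin-conjugating enzyme, and NEDD8 had changes of 0.22 and 0.09 under shUSP16#1 and 0.19 and 0.13 under shUSP16#2, but with the GC trend removed all 4 values were below 0.

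A list of 10 other ligases linked to c-Myc had a median of -0.33 under shUSP16#1 and -0.63 under shUSP16#2. Of these, 0 and 3 were at least 2-fold lower, against 5.76% and 19.5% of all genes. With the GC trend removed there were 0 under either hairpin, against 3.02% and 9.57% of all genes. RCHY1, a RING ligase, was among the 3, at 27.11, 15.36 and 9.58 TPM in shCON, shUSP16#1 and shUSP16#2. FBXO32, an F-box receptor, was at 49.87, 67.06 and 56.69 TPM, changes of 0.42 and 0.18 that stayed above 0 with the GC trend removed.

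The enzymes and other proteins that write or erase the phosphodegron made up a list of 15 genes. Their median was -0.42 under shUSP16#1 and -0.51 under shUSP16#2. At least 2-fold lower were 1 and 5, against 5.76% and 19.5% of all genes. With the GC trend removed these counts were 0 and 3, against 3.02% and 9.57% of all genes. CIP2A, an inhibitor of the phosphatase that dephosphorylates c-Myc, was at 15.63 TPM in control cells, against 6.46 TPM with shUSP16#1 and 3.26 TPM with shUSP16#2. It was called under each hairpin, and SET, another inhibitor of that phosphatase, and PPP2CA and PPP2R5A, its subunits, were among those called under shUSP16#2. The kinase MAPK3 had changes of 0.59 and 0.62, which came to 0.18 and 0.09 with the GC trend removed.

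A list of 7 deubiquitinases linked to c-Myc holds USP16 itself. The other 6 were all lower under each hairpin, where 61.7% and 70.2% of all genes were lower. Without USP16, the hairpins' target, the median of the other 6 was -0.84 under shUSP16#1 and -0.98 under shUSP16#2, and -0.72 and -0.78 with the GC trend removed. USP13 was at 8.71, 3.16 and 3.17 TPM, and USP7 at 34.89, 17.35 and 14.43 TPM, in shCON, shUSP16#1 and shUSP16#2. Of these 6, 2 were at least 2-fold lower under each hairpin, against 5.76% and 19.5% of all genes. They were USP13 and USP37 under shUSP16#1, and USP13 and USP7 under shUSP16#2. With the GC trend removed 1 of the 6 was 2-fold lower under each hairpin, against 3.02% and 9.57% of all genes. USP37 then came to -0.63 under shUSP16#1 and USP13 to -0.87 under shUSP16#2, neither of them 2-fold lower.

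The other substrates of FBXW7 and SKP2 were taken as a list of 11 genes, with a median of -0.41 under shUSP16#1 and -0.50 under shUSP16#2. Of these, 0 and 3 were at least 2-fold lower, against 5.76% and 19.5% of all genes. With the GC trend removed these counts were 1 and 4, against 3.02% and 9.57% of all genes. MCL1, a survival factor degraded through FBXW7, was at 75.28, 48.14 and 20.76 TPM in shCON, shUSP16#1 and shUSP16#2. MCL1, ORC1 and MTOR were the 3 at least 2-fold lower under shUSP16#2 before that removal. Among 9 chaperone partners of STUB1 the median was -0.16 and -0.40, and HSP90AA1 had the largest change of them, -1.11 under shUSP16#1 and -1.82 under shUSP16#2.

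**Figure D4:**
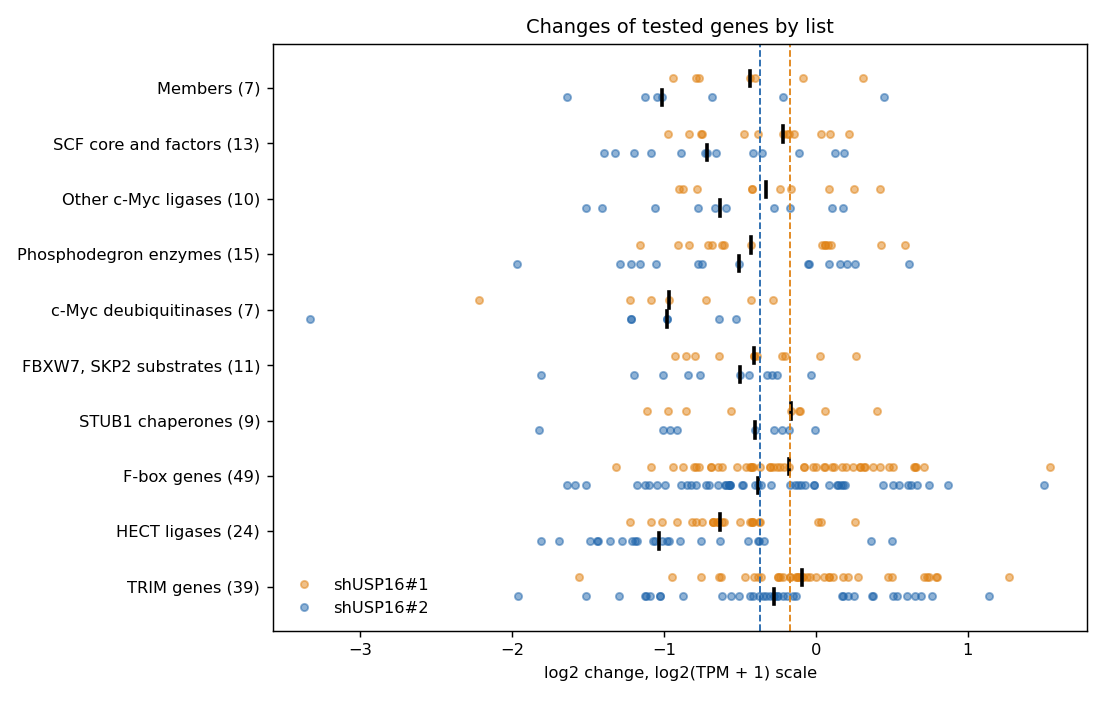
Change on the log2(TPM + 1) scale of each gene averaging 1 TPM or more, by list (number of genes in brackets), with shUSP16#1 in orange and shUSP16#2 in blue, black bars at list medians and dashed lines at the medians of all genes. Points of every list overlap between the hairpins, and the HECT ligases have medians of -0.63 and -1.03, or -0.47 and -0.78 with the GC trend removed.

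The genes whose pair of changes was nearest to that of each member were found among 9293 genes (9294 for FBXW7) averaging 5 TPM or more, by the distance between the 2 changes, which share the control library. For FBXW7 they were SLC39A6, HAUS1 and CAPZA1, the first at a distance of 0.011. For FBXO28 they were BMI1, SEC62 and GALNT1, with BMI1 at -0.80 and -1.64. CALM2, PRELID3B and PSMC1 were nearest to SKP2, and C12orf49, SNAP23 and CLMP to HUWE1. PNPLA6, MZT2B and ZNF71 were nearest to STUB1, ENDOD1, FOXC1 and SNHG16 to GSK3B, and FP565260.1, AC253536.7 and PAM to TRIM32.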

How the data were processed

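RNA-seq of 3 PC3 libraries, 1 per condition, was analysed. The authors deposited a table of TPM for 60930 genes, prepared from TruSeq libraries of total RNA with the Majorbio Cloud Platform. The submitters' processing notes name CASAVA, HISAT2 and hg19. The counting tool, its annotation, strandedness and versions are not given in the sources used here. The table holds no coordinates. Identifiers were matched to GENCODE release 29, whose GRCh38 positions are printed. TPM keeps no record of depth, so depth is unknown and no interval was given. The table also holds 3 repeated columns that were not used.

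The first listed entry of a repeated gene name was kept, which left out 1211 entries. Keeping the highest entry instead, an alternative chosen after seeing the data, gave 13637 in place of 13629 genes and changed no count of members. Changes were differences of log2(TPM + 1), with a minimum mean of 1 TPM and a threshold of 2-fold. GC content came from the longest coding transcript, or from the longest transcript of a gene without a coding one. To remove the GC trend, the median of each of 50 GC bins was subtracted and the overall median added back. Values relative to genes of like GC content leave out the last step and were added after seeing the data.

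The named genes are the 7 members, USP16, MYC, genes of the lists and the 3 nearest genes per member. Some genes of the lists are not reported here by name. Members and lists were chosen with earlier results of these data known. The lists held 13 SCF genes, 10 other ligases, 15 phosphodegron enzymes, 7 deubiquitinases, 11 substrates, 9 chaperone partners, HECT ligases, F-box genes, TRIM genes and the KEGG term in the table. Counts shared by both comparisons were not used, because they share the control. The hairpin sequences came from the study's oligonucleotide list. The procedure was tested on simulated data. Python 3.11.15, numpy 2.4.6, pandas 2.3.3 and matplotlib 3.10.9 were used.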

Additional observations from a re-analysis of the deposited data

How the results depend on the processing

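With 1 library per condition, no replicate could be left out and no value has an error, and the unknown depth limits FBXW7 most, at 1.12 to 3.63 TPM. No paired analysis was possible because the result comes from no test and each group has 1 library. A value was taken to move where it shifted by 0.1 on the log2 scale. The median of the members under shUSP16#1 was -0.26 when centred on all genes, -0.23 when centred on protein-coding genes and -0.18 relative to genes of like GC content. Under shUSP16#2 it was -0.64, -0.61 and -0.11 in these settings, -0.48 with the GC trend removed and -0.85 with a minimum of 5 TPM. The count of members at least 2-fold lower under shUSP16#2 was 1 when centred on all genes, when centred on protein-coding genes and with the GC trend removed, and 0 relative to genes of like GC content, where 7.73%, 7.17%, 9.57% and 2.49% of all genes were called. Under shUSP16#1 that count was 1, namely FBXW7, with a pseudocount of 0.1, against 9.56% of all genes. At least 1.5-fold lower under shUSP16#1 were 3 members, against 23.2% of all genes. The mean change of USP16, -2.77, was -3.28 with a pseudocount of 0.1, -2.50 and -2.47 with the centrings, -2.20 with the GC trend removed and -1.92 relative to genes of like GC content. The sign of TRIM32 turned with each centring, that of STUB1 with the GC trend removed, and that of GSK3B relative to genes of like GC content.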

Other observations

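The 24 HECT ligases had 3 genes at least 2-fold lower under shUSP16#1, namely SMURF2, UBE3A and NEDD4L, and 13 under shUSP16#2, against 5.76% and 19.5% of all genes, with none 2-fold higher. With the GC trend removed these counts were 1 and 7, against 3.02% and 9.57% of all genes. SMURF2, a ligase of the receptors and mediators of TGF-beta signalling, was at 79.63 TPM in the shCON library, and 33.61 and 28.68 TPM in the shUSP16#1 and shUSP16#2 libraries. TRIP12 was at 42.48, 24.85 and 12.46 TPM, and NEDD4 at 18.72, 10.2 and 4.63 TPM. With the GC trend removed the median of the HECT ligases was -0.47 and -0.78, against -0.63 and -1.03 without.

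The 49 F-box genes had median changes of -0.18 and -0.38, with 2 and 7 at least 2-fold lower, and the 39 TRIM genes medians of -0.09 and -0.27, with 1 and 8 at least 2-fold lower. These were 4.08% and 14.3% of the F-box genes and 2.56% and 20.5% of the TRIM genes, against 5.76% and 19.5% of all genes. In each family 1 gene was at least 2-fold higher under each hairpin, against 2.82% and 2.78% of all genes. With the GC trend removed 0 and 1 F-box genes were 2-fold lower, and 1 and 3 TRIM genes. The shares of all genes were then 3.02% and 9.57%. Relative to the median of all genes, the TRIM median was 0.08 and 0.09. With the GC trend removed it was -0.17 and -0.41, where the median of all genes was -0.18 and -0.37. The KEGG term for ubiquitin mediated proteolysis, as annotated in the deposited table, also holds genes that code for no protein. Among them are genes of 5S ribosomal RNA. In shCON, shUSP16#1 and shUSP16#2, RNA5S7 was at 0, 0 and 4165.08 TPM, RNA5S10 at 0, 336.4 and 2077.21, and RNA5S15 at 0, 183.24 and 0. Such values count toward the fixed total of each library, and their effect on the other genes was not tested. Over the 159 genes of the term averaging 1 TPM or more the median was -0.28 and -0.50. Over the 129 that code for protein, a restriction chosen after seeing the data, it was -0.38 and -0.66. At least 2-fold higher were 8 and 18 of the 159, and 1 and 2 of the 129, against 2.82% and 2.78% of all genes.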
